A study of Mus musculus with 11 samples.

Results

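The genomic regions bound by the POU factors POU5F1 and POU3F1 were compared in mouse epiblast stem cells (EpiSCs) after the withdrawal of activin. All ChIP-seq peaks that the activin-free lists of these TFs place on chromosomes 1 to 19 and X were taken, 126751 for POU5F1 and 101920 for POU3F1. These 228671 peaks were drawn from 1003005 peaks in the 10 lists of the series, which cover 5 TFs in each of 2 cultures. A peak is called shared here if it overlaps a peak of the other TF by at least 1 bp, and the remaining peaks are called POU5F1-only and POU3F1-only.

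EpiSCs of the 129/Sv strain were grown without feeders in N2/B27 medium supplemented with activin (20 ng/ml) and Fgf2 (10 ng/ml), and the activin-free cultures were kept without activin for 18 h before harvest. In each culture, 1 TF was expressed with a C-terminal biotin acceptor sequence (BLRP) together with the biotin ligase BirA from a transiently transfected pCAGGS vector, and its chromatin was sheared to about 150 bp and collected on streptavidin beads. The bound protein was thus an exogenous, tagged TF added to the endogenous one. 1 library is given for each TF in each culture, so that no value below has a replicate error and no difference between the libraries was tested. The ranges in parentheses after shares are 95% Wilson intervals and describe no more than counting error. Read numbers are not part of the peak lists, and library depth is unknown.

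POU factors bind DNA through a POU-specific domain joined to a POU homeodomain by a flexible linker, and their classical target is the octamer sequence. POU5F1 (OCT4) is required for pluripotency in the embryo and in embryonic stem cells, and in the latter it often binds next to SOX2. POU3F1 (OCT6) appears in the epiblast as it leaves the naive state and later acts in neural precursors and Schwann cells. Members of the family can also bind as dimers on palindromic sequences such as the MORE element, and isolated homeodomains recognise short A/T-rich cores.

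The coding exons of the transfected TFs were used to check the labels. A cDNA vector can add reads over the coding exons of the transfected TF, and the POU5F1 list covered 100% of the 1122 coding bases of Pou5f1 with a peak of score 3100 and 0% of those of Pou3f1. The POU3F1 list covered 100% of the 1401 coding bases of Pou3f1, likewise at 3100, and 0% of those of Pou5f1. Such peaks were not particular to the list of the transfected TF, since the activin-free ZIC2 list covered 100% of the coding bases of Pou3f1 and 62.6% of those of Pou5f1, both at 3100. The score is the MACS value of -10 log10 of the peak p-value, and it reached a ceiling in the strongest peaks. The POU5F1 list had 3466 peaks at 3100 or above with a list median of 208, and the POU3F1 list had 1117 of them with a median of 213.

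The sequences at the strongest peaks of each class are shown first, so that the motifs compared below can be seen. Each line gives 200 bp of the mm9 plus strand, centred on the overlap of a shared pair or on the midpoint of an unshared peak. They were chosen by score rank (for shared pairs the poorer of both ranks), with the narrower peak first where ranks were tied, with at most 1 region per gene and none in the coding exons of the 5 TF genes. Capitals mark an octamer (ATGCAAAT or ATGCATAT on either strand) in the shared regions. The best shared pair without an octamer is followed by the 2 best pairs with one.
Gulp1 chr1:44848895-44849094: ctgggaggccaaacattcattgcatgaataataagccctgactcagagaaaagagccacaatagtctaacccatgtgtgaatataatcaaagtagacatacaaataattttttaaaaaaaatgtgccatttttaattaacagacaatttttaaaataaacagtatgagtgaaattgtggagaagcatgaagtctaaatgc
Ryr1 chr7:29856191-29856390: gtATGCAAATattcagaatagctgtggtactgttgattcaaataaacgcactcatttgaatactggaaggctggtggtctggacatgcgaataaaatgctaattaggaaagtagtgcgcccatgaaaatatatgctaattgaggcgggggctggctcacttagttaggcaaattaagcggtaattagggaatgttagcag
Cdh10 chr15:19121635-19121834: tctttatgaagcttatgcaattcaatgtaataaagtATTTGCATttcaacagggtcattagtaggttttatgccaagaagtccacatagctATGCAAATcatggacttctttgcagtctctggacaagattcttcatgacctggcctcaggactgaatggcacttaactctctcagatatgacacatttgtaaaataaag

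The region in an intron of Gulp1, which encodes an adaptor for the engulfment of dying cells, lay 103 kb from the nearest protein-coding TSS. POU5F1 scored 3221 there over 3057 bp and POU3F1 3169 over 4841 bp. The region in an intron of Ryr1, the calcium release channel of muscle, had peaks of 1368 and 1811 bp, both at 3100. The intergenic region 372 kb from the TSS of Cdh10, a cadherin of neurons, held 2 octamers and had peaks of 1758 and 1832 bp, again both at 3100. All 3 regions also had a peak of each POU factor in EpiSCs kept in activin, with scores between 720 and 3100.

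In the POU5F1-only regions, capitals mark stretches of at least 20 bases in which purines and pyrimidines alternate without a break, called alternating stretches below. Repeats of CA, TG, TA or mixtures such as CATGCATA are of this kind.
Sox7 chr14:64580405-64580604: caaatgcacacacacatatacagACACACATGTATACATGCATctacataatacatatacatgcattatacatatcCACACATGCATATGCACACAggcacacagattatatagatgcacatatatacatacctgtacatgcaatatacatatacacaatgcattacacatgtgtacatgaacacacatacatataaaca
Rasal1 chr5:121122671-121122870: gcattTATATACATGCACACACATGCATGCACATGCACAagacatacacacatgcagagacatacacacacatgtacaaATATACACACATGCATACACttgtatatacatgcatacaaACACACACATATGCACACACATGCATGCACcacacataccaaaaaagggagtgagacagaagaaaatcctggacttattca

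These POU5F1-only peaks had the highest score in the list, with widths of 1132 and 1241 bp. The first lay 18.0 kb from the TSS of Sox7, a SOX factor of endoderm and blood vessels, and the second in an intron of Rasal1, a Ras GTPase-activating protein. Their longest stretches were 20 and 34 bases. Each had a POU5F1 peak in EpiSCs as well, with scores of 656 and 1049, and the region near Sox7 also had a weak EpiSC POU3F1 peak with a score of 59.4.

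The 3 POU3F1-only regions of best rank held neither an octamer nor an alternating stretch, and no letter is capitalised.
Gata3 chr2:8464091-8464290: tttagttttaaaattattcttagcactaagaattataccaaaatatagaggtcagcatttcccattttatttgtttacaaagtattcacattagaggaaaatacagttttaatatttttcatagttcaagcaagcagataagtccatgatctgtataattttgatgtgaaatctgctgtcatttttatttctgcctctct
Siglech chr7:62586958-62587157: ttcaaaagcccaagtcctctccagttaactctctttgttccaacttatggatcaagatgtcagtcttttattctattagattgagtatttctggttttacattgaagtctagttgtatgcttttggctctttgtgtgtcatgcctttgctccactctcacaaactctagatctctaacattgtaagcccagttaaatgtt
Gm17459 chr16:75495703-75495902: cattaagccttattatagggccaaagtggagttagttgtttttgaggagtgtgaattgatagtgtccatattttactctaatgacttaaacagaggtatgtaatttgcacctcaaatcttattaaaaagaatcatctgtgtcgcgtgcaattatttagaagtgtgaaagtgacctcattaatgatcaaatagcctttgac

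Their POU3F1 peaks had scores of 3185, 3142.5 and 3100 and widths of 3652, 3720 and 1861 bp, and all were intergenic. The nearest protein-coding TSSs, which give them their names here, were 1336, 436 and 78.7 kb away. All 3 had a POU3F1 peak in EpiSCs (scores of 1782, 2380 and 1428) and no POU5F1 peak in either culture.

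Of the POU5F1 peaks, 58665 (46.3%, interval 46.0 to 46.6) overlapped a POU3F1 peak, and in the other direction 55660 peaks of POU3F1 (54.6%, 54.3 to 54.9) met one of POU5F1. The overlaps formed 60488 pairs, of which 48375 joined exactly 1 peak of each list. Among these one-to-one pairs the midpoints were 128 bp apart at the median (quartiles 55 and 281 bp), and the median overlap over all pairs was 993 bp. In 67.1% of the one-to-one pairs the POU3F1 peak was the wider one. Spearman's rho across one-to-one pairs was 0.29 for the scores and 0.43 for the widths, which describes how the same places rank in both libraries and carries no test. In the EpiSC lists, which held 62387 POU5F1 and 112687 POU3F1 peaks, the corresponding shares were 51.7% and 28.0%. Most overlaps joined 1 peak of each list, so both shares rest on similar counts and depend largely on the lengths of the lists. Which share is larger was therefore not read as a property of the TFs. Among the 50000 highest-scoring peaks of each list, where lengths are equal, the shares were 42.4% for POU5F1 and 41.4% for POU3F1. Among peaks under 1000 bp, 67235 of POU5F1 and 32563 of POU3F1, they were 9.38% and 19.3%.

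Few peaks were assigned to a class by a margin under 100 bp, but the classes depended on the rule for overlap. Of the overlapping pairs, 1.64% shared less than 100 bp, and the gap to the nearest peak of the other TF was 100 bp or less for 1.04% of the POU5F1-only peaks and 1.27% of the POU3F1-only peaks. However, 70.2% of the pairs overlapped by at least 50% of both peaks, and under that rule 33.5% of POU5F1 and 41.7% of POU3F1 peaks were shared. A peak of the other TF lay within 1 kb of 9.89% of the POU5F1-only and 17.8% of the POU3F1-only peaks. The POU3F1-only peaks lay closer to the other factor. The median gap was 3.999 kb from a POU3F1-only peak to the nearest POU5F1 peak and 14.8 kb from a POU5F1-only peak to the nearest POU3F1 peak.

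The relation between score and sharing differed between the lists. When each list was divided by score into 10 equal parts, called deciles, the share of POU3F1 peaks that overlapped a POU5F1 peak rose at every step, from 32.4% (31.5 to 33.3) in the lowest decile to 90.7% (90.1 to 91.2) in the highest. The share of POU5F1 peaks rose from 31.5% (30.7 to 32.3) to 60.1% (59.3 to 61.0) in decile 9 and was 58.8% (58.0 to 59.7) in the highest. Accordingly, the peaks at the score ceiling were divided unevenly: 1491 POU5F1-only peaks and 11 POU3F1-only peaks scored 3100 or more, against 1975 and 1106 shared ones.

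The plateau was not seen when POU5F1 peaks with an alternating stretch within 100 bp of the midpoint were left out, a split chosen after the sequences had been seen. Without them, the share rose from 34.9% (34.0 to 35.8) to 77.9% (76.9 to 78.8) in the highest decile, at every step. Among the 27115 POU5F1 peaks with a stretch, 20.6% (20.2 to 21.1) were shared, from 13.6% in the lowest decile to 27.8% in the highest. The POU3F1 list showed the opposite order, since 79.2% (78.1 to 80.3) of its 5123 peaks with a stretch were shared and 53.3% (53.0 to 53.6) of those without. POU5F1 peaks without a stretch were shared to the same 53.3% (53.0 to 53.6).

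**Figure D1:**
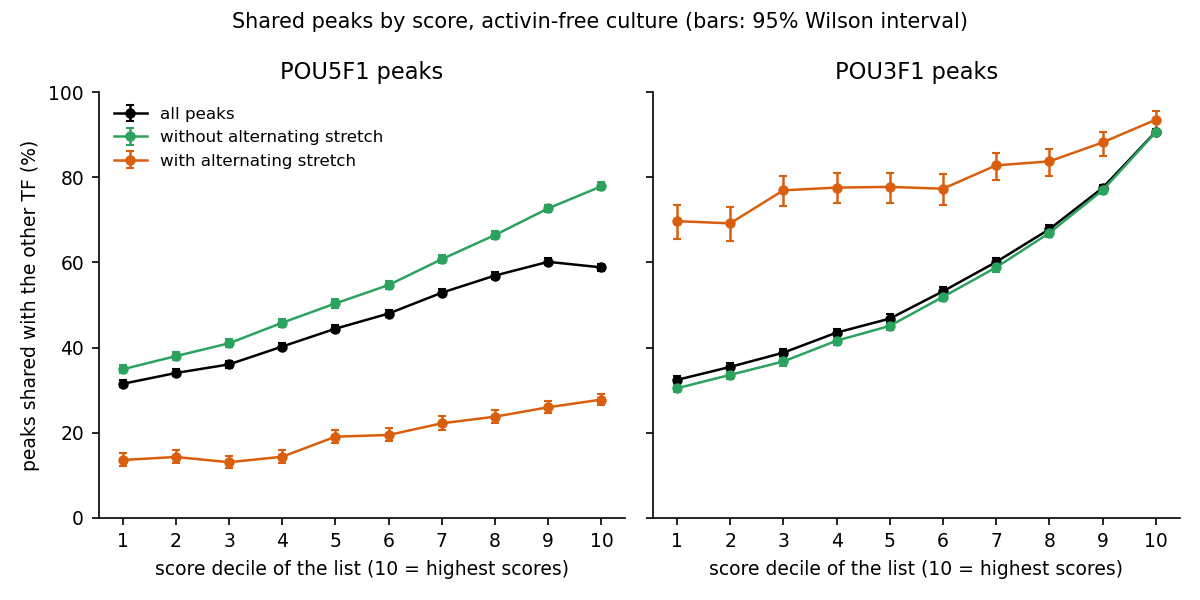
Percentage of POU5F1 peaks (left) and POU3F1 peaks (right) that overlapped a peak of the other TF, for each decile of the list by score, with 95% Wilson intervals as bars. Black points are all peaks, green points peaks without and orange points peaks with an alternating stretch of at least 20 bases. The orange points lie below the green ones on the left (20.6% against 53.3% over all deciles) and above them on the right (79.2% against 53.3%).

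Shared peaks were wider than unshared ones in both lists. The median width was 1156 bp (quartiles 891 and 1593) for shared and 865 bp (707 and 1081) for POU5F1-only peaks, and 1440 bp (1049 and 2077) for shared and 1055 bp (843 and 1381) for POU3F1-only peaks. Peaks over 2000 bp made up 13.5% (13.2 to 13.7) of the shared POU5F1 peaks and 1.73% (1.63 to 1.83) of the POU5F1-only peaks. In the POU3F1 list they made up 27.1% (26.7 to 27.5) of the shared and 7.03% (6.80 to 7.26) of the unshared peaks. A wide peak has more bases in which to meet another one, and the share that overlapped rose with width throughout, in POU5F1 from 9.95% under 500 bp to 87.0% from 2000 bp and in POU3F1 from 26.6% to 82.3%.

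Width and score rose together, and at a given width the lists differed in how sharing went with score. Among POU5F1 peaks of 750 bp to under 1000 bp, the shared percentage fell from 41.1% (40.3 to 41.9) in the 3 lowest score deciles to 36.8% in deciles 4 to 7 and 26.2% in the 3 highest. Among POU3F1 peaks of the same width it rose from 35.8% (35.1 to 36.5) to 46.2% and 67.2% (60.0 to 73.7). The fall in POU5F1 was smaller among peaks without an alternating stretch, where the 3 values were 44.5% (43.7 to 45.4), 43.0% and 41.6% (39.5 to 43.7). At 1000 bp to under 1500 bp the POU5F1 values without a stretch were 57.0%, 62.5% and 62.4%, whereas the POU3F1 values without a stretch were 38.8%, 47.4% and 67.3%. Over all POU5F1 peaks of this width, with or without a stretch, they were 55.2% (53.0 to 57.5), 58.8% and 47.0% (46.3 to 47.8). Thus, at both widths, sharing rose with score in the POU3F1 list, whereas in the whole POU5F1 list it was lowest in the 3 highest deciles. At 2000 bp or more it rose in both lists from deciles 4 to 7 to deciles 8 to 10. The values were 81.5% and 87.5% for POU5F1 and 65.3% and 84.5% for POU3F1.

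**Figure D2:**
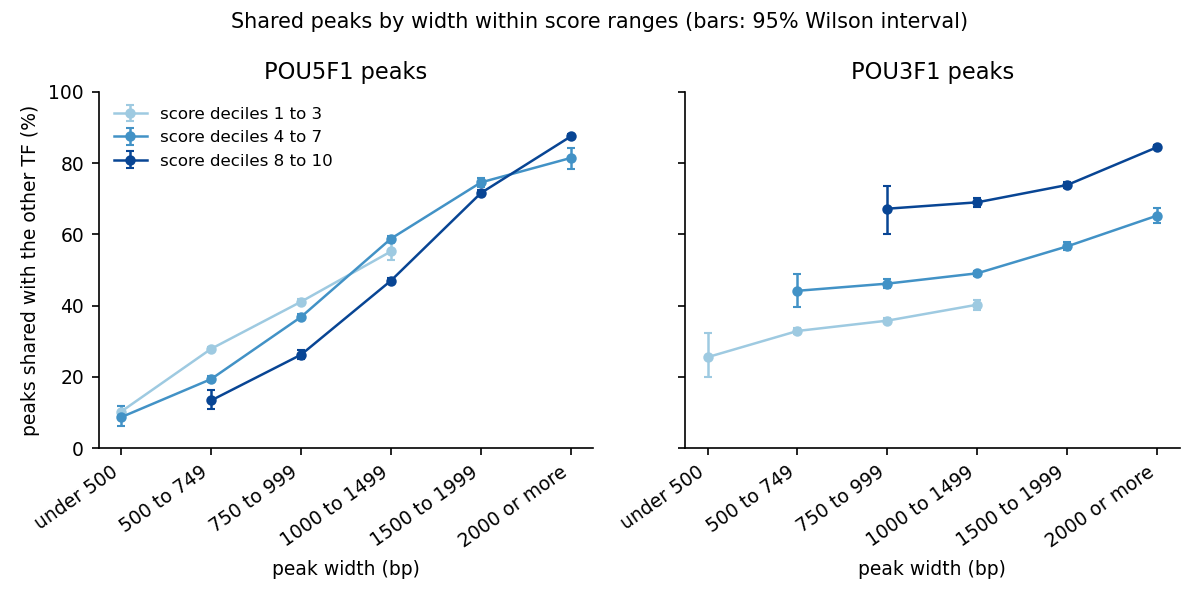
Percentage of POU5F1 peaks (left) and POU3F1 peaks (right) that overlapped a peak of the other TF, by peak width and within 3 ranges of score deciles (darker lines, higher scores), with 95% Wilson intervals; points with fewer than 100 peaks are left out. At 750 bp to under 1000 bp the darkest point is the lowest on the left (26.2%) and the highest on the right (67.2%).

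The base composition set the POU5F1-only peaks apart from the other 3 classes. In the 200 bp around the midpoint the median GC content was 35% in POU5F1-only peaks and 31.5% in shared POU5F1, shared POU3F1 and POU3F1-only peaks. GC was under 40% in 75.6% (75.3 to 75.9) of the POU5F1-only windows, compared with 91.9%, 91.3% and 92.7% in the other classes in the same order. In windows of the same length 1000 bp to either side, the medians were 41.5% for POU5F1-only peaks, 37.5% for both kinds of shared peaks and 38.5% for POU3F1-only peaks. All classes were thus poorer in GC at the midpoint than nearby, and the POU5F1-only peaks lay in surroundings richer in GC.

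Sharing fell with GC in the POU5F1 list and rose in the POU3F1 list up to a GC content of 50%. Of the POU5F1 peaks with GC under 35%, 56.8% (56.4 to 57.1) were shared, and this fell to 37.3% at 35 to 40%, 24.6% at 40 to 45% and 17.5% (16.5 to 18.6) at 45 to 50%. The POU3F1 values were 53.7% (53.4 to 54.1), 56.2%, 59.7% and 64.4% (61.9 to 66.9). At 50% or more, where peaks were few, both were lower, 14.8% (13.0 to 16.9) for 1275 POU5F1 peaks and 34.7% (30.9 to 38.7) for 559 POU3F1 peaks. The fall in POU5F1 was present with and without alternating stretches. Among peaks without a stretch it went from 67.1% under 30% GC to 25.7% at 45% or more, and among peaks with one from 43.6% to 3.86%.

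Octamers were found in all classes above the level of the flanking windows, and their 2 forms behaved differently. The form ATGCAAAT occurred in 5.64% (5.46 to 5.83) of shared POU5F1 windows, 4.51% (4.35 to 4.66) of POU5F1-only windows, 5.23% (5.05 to 5.42) of shared POU3F1 windows and 4.45% (4.26 to 4.64) of POU3F1-only windows. Relative to the flanks, where 2.04%, 1.58%, 1.89% and 1.75% of windows held it, this was 2.76, 2.85, 2.76 and 2.54 times as frequent. The form ATGCATAT ranged more widely, from 10.9% (10.6 to 11.1) in POU5F1-only peaks through 6.80% and 5.84% in shared peaks to 3.39% (3.22 to 3.55) in POU3F1-only peaks. Its ratios to the flanks were 7.61, 3.98, 3.11 and 2.23. The classes therefore had nearly the same ratio to the flanks for the first form and differed in the second. The letters of ATGCATAT alternate between purine and pyrimidine throughout and can be part of an alternating stretch. In all classes the midpoints were poorer in GC than the flanks, and the part of base composition in these ratios was not tested.

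Taking both forms together, octamers were present in 12.0% (11.7 to 12.3) of shared POU5F1, 14.9% (14.6 to 15.1) of POU5F1-only, 10.6% (10.4 to 10.9) of shared POU3F1 and 7.68% (7.44 to 7.93) of POU3F1-only windows. An octamer without an alternating stretch in the same window was found in 9.10%, 7.07%, 8.40% and 7.26% of all windows, respectively. Windows with a stretch, 31.6% of the POU5F1-only windows, cannot enter these counts. The 4 values therefore do not compare octamers among windows without a stretch. Among those windows, octamers were present in 5340 of 53071 shared POU5F1 and 4813 of 46565 POU5F1-only windows. For shared POU3F1 and POU3F1-only windows the counts were 4674 of 51601 and 3359 of 45196. Most windows had neither feature, 81.4%, 61.3%, 84.3% and 90.4%. The MORE element (2 adjoining copies of ATGCAT) was rare everywhere, in 0.251% (0.216 to 0.292) of POU5F1-only and 0.114% (0.0899 to 0.145) of shared POU5F1 windows, 0.0934% of shared POU3F1 and 0.0281% (0.0164 to 0.0481) of POU3F1-only windows. Relative to the flanks it was 22.8, 6.38, 5.78 and 2.60 times as frequent in these classes, from few windows. The letters of this element also alternate between purine and pyrimidine throughout, so that it can be part of an alternating stretch. The SOX-POU composite element occurred in 0.0940% to 0.131% of the windows of the 4 classes, and in 0.0335% to 0.0548% of flanks.

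Alternating stretches also differed between the classes. They were present in 31.6% (31.3 to 32.0) of POU5F1-only windows, 9.54% (9.30 to 9.78) of shared POU5F1 windows, 7.29% (7.08 to 7.51) of shared POU3F1 windows and 2.30% (2.17 to 2.44) of POU3F1-only windows. The flanking windows held 4.30%, 3.92%, 4.57% and 3.77%. The POU3F1-only peaks were thus the one class with fewer stretches at the midpoint than nearby, by a factor of 0.611, whereas POU5F1-only peaks had 7.36 times as many. In POU5F1-only peaks the share with a stretch rose with the score, from 20.2% in the lowest to 66.7% in the highest decile. In shared POU3F1 peaks it fell, from 10.8% to 3.88%, and the share with an octamer fell as well, from 12.8% to 8.00%. The window stayed at 200 bp, whereas the median width of POU3F1 peaks rose from 711 bp in the lowest to 2789.5 bp in the highest decile. The part of the fixed window in these values was not tested, and the classes differed in width as well.

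Most stretches did not consist of CA and TG steps alone, a count that any other step between adjoining bases excludes. Of the stretches at POU5F1-only midpoints, 1.48% did so, against 17.7% of the stretches in their flanks, and 27.6% contained the motif ATGCAT, against 9.86% in the flanks. Steps of the CA kind (CA, TG, AC or GT) nevertheless made up 61.9% of all steps in the POU5F1-only midpoint stretches and 75.3% in their flanks. At shared POU5F1 midpoints, 2.68% of stretches had CA and TG steps alone and 28.5% the motif ATGCAT, and at POU3F1-only midpoints 9.12% and 17.3%. Uninterrupted runs of 6 copies of CA or TG were found in 11.9% (11.7 to 12.1) of POU5F1-only windows and in 1.10% to 2.69% of the windows of the other classes. Median lengths were 34 bases for both POU5F1 classes and 30 bases for POU3F1-only peaks.

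**Figure D3:**
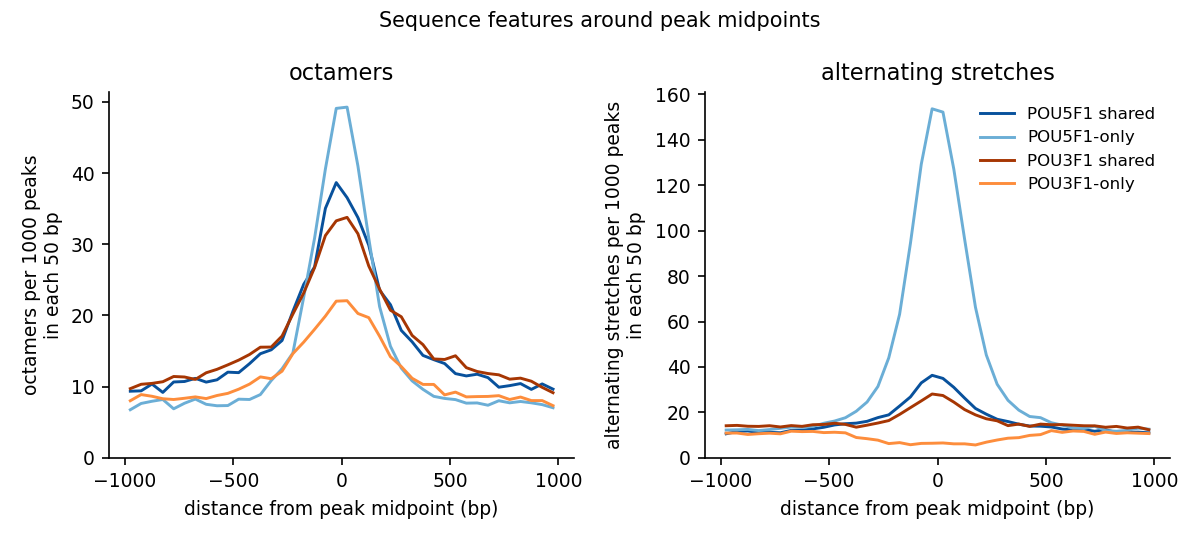
Octamers (left) and alternating stretches of at least 20 bases (right) per 1000 peaks in 50 bp bins by distance from the peak midpoint, for the 4 classes of peaks. In the bin centred at -25 bp the POU5F1-only peaks reach 49.1 octamers and 154 stretches per 1000 peaks and the POU3F1-only peaks 22.0 and 6.42, whereas in the bin at 975 bp all classes lie between 7.04 and 9.65 octamers and between 10.7 and 12.6 stretches.

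POU5F1-only peaks were nearer to genes. Their median distance to the closest of 86803 annotated TSSs was 28.7 kb (quartiles 9.15 and 82.7), compared with 54.3 kb (16.4 and 146) for shared POU5F1, 52.9 kb for shared POU3F1 and 59.2 kb (18.4 and 152) for POU3F1-only peaks. A TSS lay within 50 kb of 63.3% (63.0 to 63.7) of POU5F1-only, 47.9% (47.4 to 48.3) of shared POU5F1, 48.5% of shared POU3F1 and 45.7% (45.3 to 46.2) of POU3F1-only peaks. Peaks within 1 kb of a TSS were few in every class, between 1.99% and 3.09%. Introns held 43.2% of the POU5F1-only midpoints and 34.6% of the POU3F1-only midpoints, and exons 2.23% and 1.64%.

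Seen from the TSS, the share of POU5F1 peaks that were also POU3F1 peaks rose with distance, from 35.7% (34.1 to 37.3) under 1 kb and 40.3% at 5 to 50 kb to 51.5% at 50 to 200 kb and 70.1% (68.4 to 71.8) at 500 kb or more. The POU3F1 peaks showed no such gradient. Their shared percentage was 51.3% (49.2 to 53.4) under 1 kb, 59.0% (57.9 to 60.0) at 1 to 5 kb and 53.0% (51.3 to 54.7) at 500 kb or more.

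The same asymmetry was seen along chromosomes. In 2565 segments of 1 Mb, divided by GC content into quintiles, the mean number of shared POU5F1 peaks fell from 53.6 per segment in the quintile with the lowest GC to 3.22 in the highest, and that of POU3F1-only peaks from 41.8 to 2.28. The number of POU5F1-only peaks stayed between 20.9 and 29.6 in all quintiles. Correspondingly, 72.0% of the POU5F1 peaks were shared in the lowest quintile and 11.6% in the highest, while 54.1% and 58.7% of the POU3F1 peaks were. Spearman's rho with segment GC was -0.74 for shared POU5F1, -0.82 for POU3F1-only and 0.10 for POU5F1-only peaks. These are descriptions across segments of the same 2 libraries, in which GC and gene number are themselves related (rho 0.68). Over all peaks of each list, POU5F1 and POU3F1 numbers followed one another (rho 0.85). Shared POU3F1 and POU3F1-only peaks did so closely (rho 0.91), unlike shared POU5F1 and POU5F1-only peaks (rho 0.25). Between POU5F1-only and POU3F1-only peaks rho was 0.11.

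**Figure D4:**
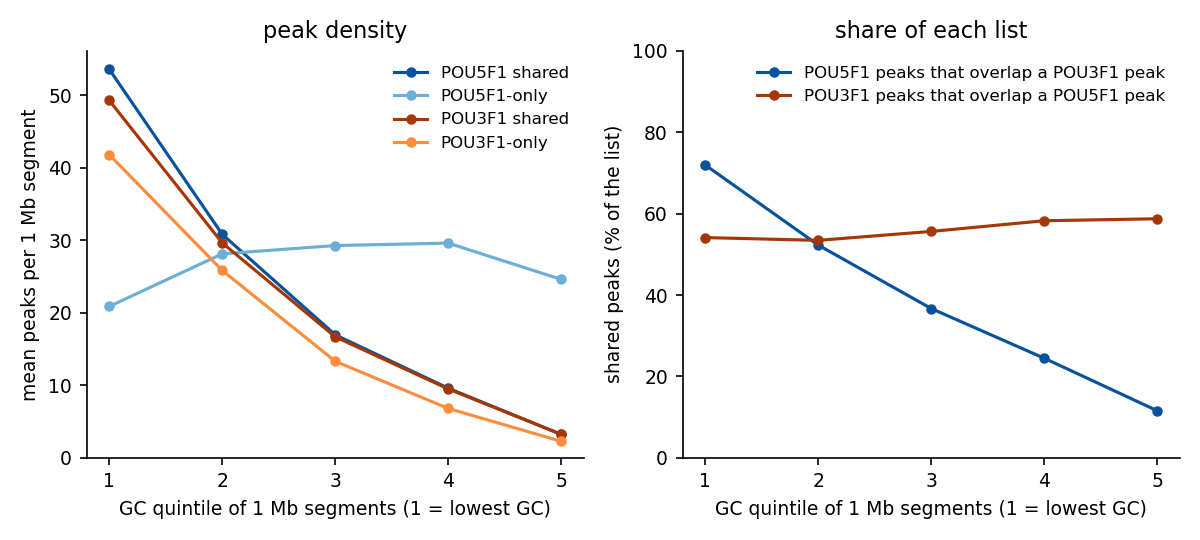
Mean number of peaks of each class per 1 Mb segment (left) and percentage of each list that was shared (right), in quintiles of 513 segments ordered by GC content. Shared and POU3F1-only peaks fall steeply with GC while POU5F1-only peaks stay between 20.9 and 29.6 per segment, and the shared percentage of the POU5F1 list falls from 72.0% to 11.6%.

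For the genes, each peak was assigned to the protein-coding gene with the closest TSS, within 50 kb. Of 22350 protein-coding genes, 27.2% had at least 1 shared POU5F1 peak, 56.7% at least 1 POU5F1-only peak and 23.7% at least 1 POU3F1-only peak. These shares are the background for the lists below. Genes with POU5F1-only peaks and none of the other kinds numbered 6717, compared with 595 genes with shared peaks only and 596 with POU3F1-only peaks only, and 7861 genes had none. All lists were put together by hand, and the counts were not corrected for gene length or for the number of TSSs of a gene.

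The counts in the lists are descriptions, and with 14 to 25 genes in most lists several lie within a few genes of the background. Of 14 genes of naive pluripotency, 5 had a shared peak, 12 a POU5F1-only peak and 4 a POU3F1-only peak. These are 35.7%, 85.7% and 28.6%, against 27.2%, 56.7% and 23.7% of all protein-coding genes. Nr0b1, an orphan nuclear receptor active in naive stem cells, had 6 shared, 3 POU5F1-only and 1 POU3F1-only peak, the strongest shared one 11.2 kb from its TSS with scores of 861 for POU5F1 and 428 for POU3F1. Zfp42 (REX1), a zinc finger marker of the naive state, had 2 shared, 3 POU5F1-only and 2 POU3F1-only peaks, and so had Nr5a2, an orphan nuclear receptor.

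Of 20 genes active in the epiblast or in pluripotent cells at large, 11 had a shared, 14 a POU5F1-only and 4 a POU3F1-only peak. In percent this was 55, 70 and 20, beside 27.2, 56.7 and 23.7 for all genes. Lin28b, an RNA-binding protein that blocks let-7 maturation, led this list with 12 shared peaks against 1 POU5F1-only and 3 POU3F1-only peaks. Its strongest shared peak lay in its intron at chr10:45199295-45201893, 4.99 kb from a TSS, with scores of 3100 for POU5F1 and 1045 for POU3F1. At Fgf5, an FGF ligand typical of the epiblast, 3 shared, 5 POU5F1-only and 2 POU3F1-only peaks were found, the best shared one across the 3′ end of the gene at 2929 and 943. Foxd3, a forkhead factor of the epiblast and neural crest, had 3 shared peaks (best pair 2713 and 197) and no POU3F1-only peak.

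Of 14 genes of the POU family, 9 (64.3%) were near shared peaks, with 10 (71.4%) near POU5F1-only and 8 (57.1%) near POU3F1-only peaks. The background shares were 27.2%, 56.7% and 23.7%. Pou2f1, the widely expressed OCT1, had 9 shared peaks, and the best was 0.311 kb from a TSS in the gene, with an octamer and scores of 2018 for POU5F1 and 3100 for POU3F1. Pou3f4, a neural class III factor on the X chromosome, had 9 shared peaks within 50 kb and 52 for which it was the closest gene at any distance. Of the genes of the compared TFs themselves, Pou5f1 had no shared peak and 3 POU5F1-only peaks, and Pou3f1 had no peak other than the POU3F1 peak over its coding exon. The peaks over the coding exons of Pou5f1 and Pou3f1 coincide with the cDNA of the vector.

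SOX genes were near shared peaks in 9 of 18 cases, near POU5F1-only peaks in 13 and near POU3F1-only peaks in 6. As shares these are 50%, 72.2% and 33.3%, where the background is 27.2%, 56.7% and 23.7%. Sox6, a factor of muscle and cartilage among other tissues, had 7 shared, 6 POU5F1-only and 11 POU3F1-only peaks. Sox21, expressed in neural progenitors, had 4 shared and 3 POU5F1-only peaks and no POU3F1-only peak. Sox5, a close relative of Sox6, had 3 shared, 6 POU5F1-only and 2 POU3F1-only peaks. Sox2 itself had 1 shared peak (531 and 145) and 4 POU5F1-only peaks, the best at 3100 and 49.7 kb from its TSS. Zic2 and Otx2 had shared peaks over their coding exons, with POU5F1 and POU3F1 scores of 236 and 1459 at Zic2 and of 122 and 339 at Otx2. Vectors with the cDNAs of these genes were used in other cultures of the series, and the activin-free SOX2 list had peaks over the same exons (721 at Zic2 and 152 at Otx2). The part of carry-over in these peaks was not tested.

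Components of nodal and activin signalling, whose ligand activin was withdrawn here, were near shared peaks in 7 of 20 cases. They were near POU5F1-only peaks in 15 and near POU3F1-only peaks in 5. The 3 shares were 35%, 75% and 25%, against a background of 27.2%, 56.7% and 23.7%. The type I receptor gene Acvr1c had 3 shared, 3 POU5F1-only and 7 POU3F1-only peaks, with the best shared pair at 1550 and 3100. Acvr2a, which encodes a type II receptor for activin, had 3 shared, 5 POU5F1-only and 4 POU3F1-only peaks. Smad4, the common mediator of the pathway, had 1 shared, 5 POU5F1-only and 2 POU3F1-only peaks.

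Of 25 genes of the neural plate and of neural progenitors, 13 were near a shared, 20 near a POU5F1-only and 9 near a POU3F1-only peak. That is 52%, 80% and 36%, beside 27.2%, 56.7% and 23.7% of all genes. Cdh2 (N-cadherin), the adhesion molecule of the neural plate, had 15 shared peaks against 4 POU5F1-only and 8 POU3F1-only peaks, and its best shared peak in an intron scored 3100 and 1820. Pou3f2, a neural class III factor, had 4 shared, 1 POU5F1-only and 3 POU3F1-only peaks. Of 20 genes of the primitive streak, mesoderm and endoderm, 5 (25%) were near a shared, 8 (40%) near a POU5F1-only and 4 (20%) near a POU3F1-only peak, where the background is 27.2%, 56.7% and 23.7%. T (brachyury), which drives mesoderm formation, had 5 POU5F1-only peaks, the best at 3132 with an octamer and an alternating stretch, and 1 shared peak scoring 2965 for POU5F1 and 78.2 for POU3F1. Gata6, an endoderm factor, had 3 shared peaks and no unshared peak, and Foxa1, a forkhead factor of the endoderm, had 3 shared, 2 POU5F1-only and 1 POU3F1-only peak.

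Very long genes collected the most peaks, counted here for each gene identifier. Of 20 long synaptic and adhesion genes (median length 1514 kb, against 15.4 kb for all genes), 19 (95%) were near shared peaks. Near POU5F1-only peaks were 19 (95%) and near POU3F1-only peaks 20 (100%), where the background is 27.2%, 56.7% and 23.7%. This list was counted by gene name, and its 20 names stand for 23 gene identifiers. Dlg2, a scaffold of the postsynaptic density that spans 1945 kb of chromosome 7, had the most shared peaks of any gene, 49, as well as 32 POU5F1-only and 36 POU3F1-only peaks. Lingo2, Fam190a, Ptprd, Cdh18 and Sgcz followed with 46, 42, 37, 37 and 34 shared peaks, and a second, short gene model named Ptprd had 1 more. At Sgcz, a sarcoglycan gene, 34 shared peaks stood against 1 POU5F1-only and 15 POU3F1-only peaks, and at Csmd3 28 stood against 4 and 8.

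POU5F1-only peaks were most numerous at Pde4d, a cAMP phosphodiesterase gene with 35 such peaks beside 33 shared and 12 POU3F1-only peaks, and next at Dlg2. A second, short gene model named Pde4d had 4 POU5F1-only peaks and 1 shared peak. Nckap5 had 30 POU5F1-only peaks with 3 shared and 3 POU3F1-only peaks, and its best POU5F1-only peak scored 3100 and held an alternating stretch. Rims1, an organiser of presynaptic active zones, followed with 29 POU5F1-only peaks, Ank2 with 26 and Mid1 with 24. After Dlg2 and Ptprd, POU3F1-only peaks were most numerous at March1, Thsd7a and Lingo2, with 23 each, and at Cdh18, with 22. The best POU3F1-only peak of March1 scored 3084 over 3083 bp, and that of Thsd7a 2253 over 3469 bp.

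Shared peaks overlapped SOX2 peaks more often than unshared peaks of the same TF. Of the shared POU5F1 peaks 13.7% (13.4 to 14.0) overlapped an activin-free SOX2 peak, as did 15.6% (15.3 to 15.9) of the shared POU3F1 peaks, 11.4% (11.1 to 11.7) of the POU3F1-only and 6.95% (6.77 to 7.15) of the POU5F1-only peaks. OTX2 peaks were found at 12.3%, 13.5%, 12.1% and 9.39% of these classes. ZIC2 peaks were found at 4.91% (4.75 to 5.07) of POU5F1-only and 1.83% (1.72 to 1.94) of shared POU5F1 peaks, and at 2.02% of shared POU3F1 and 2.03% of POU3F1-only peaks. Among POU5F1-only peaks, those with an alternating stretch overlapped ZIC2 in 7.48% (7.13 to 7.84) and SOX2 in 3.09% (2.86 to 3.32) of cases, and those without in 3.72% (3.55 to 3.89) and 8.74%. Wider peaks overlap other lists more readily, and the classes differed in width as given above.

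The classes also differed in what the EpiSCs kept in activin showed at the same places. Of the shared POU5F1 peaks, 92.3% (92.0 to 92.5) overlapped an EpiSC POU3F1 peak and 51.8% (51.4 to 52.2) an EpiSC POU5F1 peak, with 4.49% overlapping neither. The first share follows largely from the class rule, since 86.8% of all activin-free POU3F1 peaks overlapped an EpiSC POU3F1 peak. Of the POU3F1-only peaks, 80.0% (79.6 to 80.4) overlapped an EpiSC POU3F1 peak, and 0.545% (0.482 to 0.616), or 252 of 46260, an EpiSC POU5F1 peak, a low share that the rule for the class nearly fixes. Of the POU5F1-only peaks, 43.1% (42.7 to 43.5) overlapped an EpiSC POU5F1 peak and 9.09% (8.88 to 9.31) an EpiSC POU3F1 peak, and 51.6% overlapped neither. Here too the class rule keeps the overlap with POU3F1 low, since 82.6% of EpiSC POU3F1 peaks overlapped an activin-free POU3F1 peak. The EpiSC POU5F1 list was shorter than the activin-free one, and 98.3% (98.2 to 98.4) of its 62387 peaks overlapped an activin-free POU5F1 peak.

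The strongest peaks recurred almost without exception. In the highest score decile, 99.9% of both the shared and the unshared POU5F1 peaks and all 950 POU3F1-only peaks overlapped a peak of the same TF in EpiSCs, whereas in the lowest decile 3.74% of shared POU5F1, 4.90% of POU5F1-only and 47.9% of POU3F1-only peaks did. Overlap with EpiSC peaks of the other TF was limited by the class itself, since a POU3F1-only peak has no activin-free POU5F1 peak and nearly all EpiSC POU5F1 peaks overlapped an activin-free one. Of the POU5F1-only peaks of the highest decile, 9.31% overlapped an EpiSC POU3F1 peak, and 10 of the 950 POU3F1-only peaks (1.05%, 0.573 to 1.93) overlapped an EpiSC POU5F1 peak. POU5F1-only peaks with an alternating stretch recurred more often than those without, 59.3% (58.6 to 59.9) against 35.6% (35.2 to 36.1). Both recurrence and the share of peaks with a stretch rose with the score in this class, the latter from 20.2% to 66.7%. Peaks with and without a stretch were not compared at equal scores.

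**Figure D5:**
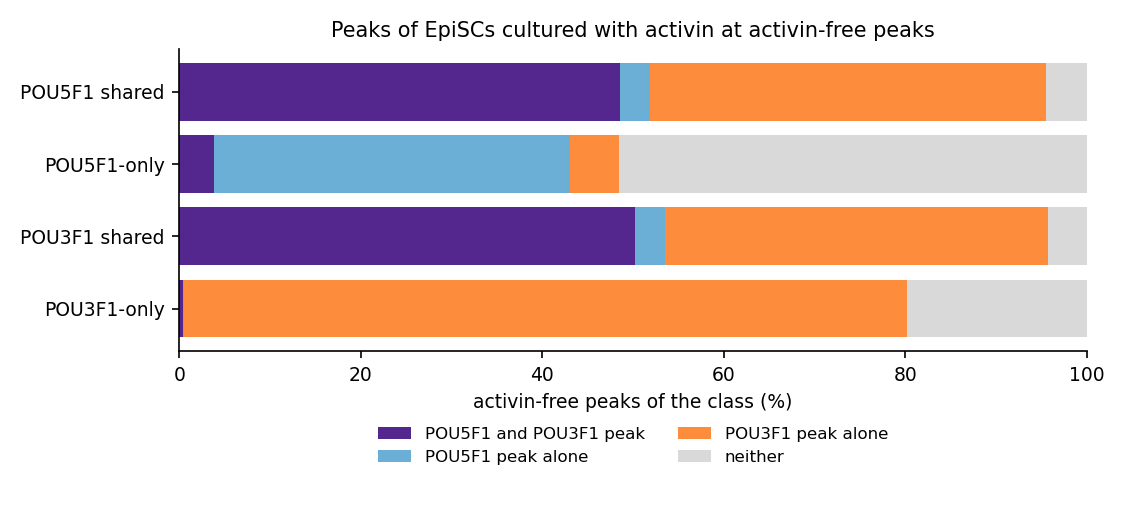
Percentage of the activin-free peaks of each class that overlapped a POU5F1 peak, a POU3F1 peak, both or neither in EpiSCs cultured with activin. POU3F1-only peaks met POU3F1 peaks alone in 79.6% of cases and neither in 19.9%, whereas 39.3% of POU5F1-only peaks met POU5F1 peaks alone and 51.6% neither.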

How the data were processed

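The peak lists were deposited as 1 BED file per library. According to the methods, the authors aligned reads to the mouse genome mm9 with Bowtie2 and called peaks with MACS against input chromatin, and the deposited score is -10 log10 of the peak p-value, at least 50 in every list. A score rises with depth as well as with binding, so scores were compared by rank within a list. Peaks on chromosomes 1 to 19 and X were used, which left out 157 POU5F1 and 69 POU3F1 peaks. The input library was not used here.

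Overlap needed at least 1 bp. Sequence was read from NCBIM37 (mm9) in windows of 200 bp around peak midpoints and, as background, in 2 windows centred 1000 bp to either side. TSSs and genes came from GENCODE vM1, and a gene was assigned the peaks nearest to its TSS within 50 kb. Wilson intervals (95%) treat peaks as independent, and with 1 library per group no test was made. The overlap, motif and distance steps were tested on simulated data. Named genes were those of the 5 TFs, the 6 genes with the most peaks of each class, the 3 genes with the most shared peaks in each list, and those nearest to the printed regions, which were taken outside chromosome 18. A gene and a region that met these rules are not reported here. The peaks compared and the gene lists were chosen with earlier results of these data known, and the split by alternating stretches was added after the sequences had been seen. Python 3.11.15, numpy 2.4.6, pandas 2.3.3, SciPy 1.17.1, pysam 0.24.0, samtools 1.23.1 and matplotlib 3.10.9 were used.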

Additional observations from a re-analysis of the deposited data

How the results depend on the processing

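No paired analysis was possible because each TF has 1 library in each culture, and for the same reason no library could be left out. Of 47 alternatives to 29 values, 6 moved the value by less than its counting interval and 41 by more; the cause was not tested unless the alternative's own construction shows it. The shared percentages of POU5F1 and POU3F1 (46.3 and 54.6) became 44.5 and 51.7 at scores of at least 100, 42.4 and 41.4 for the 50000 highest-scoring peaks, 33.5 and 41.7 where the overlap had to reach 50% of both peaks, 26.0 and 32.3 for midpoints within 200 bp, and 9.38 and 19.3 for peaks under 1000 bp. They became 51.7 and 50.7 without peaks with an alternating stretch, an alternative chosen after seeing the data. In the highest score decile, the POU5F1 value of 58.8 became 49.3 and 31.6 with the 50% overlap and the midpoint rule and 77.9 without stretches, and the POU3F1 value of 90.7 became 59.5 and 38.6 with the first 2 of these. In the order shared POU5F1, POU5F1-only, shared POU3F1 and POU3F1-only, scores of at least 100 gave 18.2, 2.99, 34.5 and 12.7% of peaks over 2000 bp, and 44.6, 38.0, 92.9 and 82.4% with a peak of the same TF in EpiSCs. In the same order, a window of 250 bp on each side gave 95.3, 71.5, 95.3 and 95.4% under 40% GC, stretches of at least 30 bases gave 5.83, 19.9, 4.63 and 1.19%, and protein-coding TSSs alone gave 30.6, 48.4, 31.3 and 27.7% within 50 kb. At scores of at least 100, octamers were in 15.6% of POU5F1-only windows and stretches in 34.0% of POU5F1-only and 2.49% of POU3F1-only windows. Without the limit of 50 kb, 31.9% of genes were nearest to a shared peak. The lists hold no read counts, so neither a depth limit nor a floor for an absent peak could be set.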

Other observations

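The widest POU5F1 peak, at chr2:10391474-10440571 (mm9), spanned 49098 bp of the gene Sfmbt2, a polycomb-associated gene, with a score of 2759. It covered 108 of the 1576 annotated miRNA genes, among them 22 of the mir-466, 26 of the mir-669, 13 of the mir-467 and 5 of the mir-297 families. The region held 187 alternating stretches, which made up 10.6% of its bases, and 78 octamers. In EpiSCs, 5 POU5F1 peaks covered 98.8% of it. The activin-free POU3F1 list had 12 peaks there, which covered 33.0% with scores up to 700, and the ZIC2 and SOX2 lists of both cultures had none. Where copies of a family are alike, reads cannot be assigned to single copies with certainty, and how far this applies to the region was not tested.

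Words of 8 bases, ranked after the data were seen, also separated the classes. ACATGCAC occurred in 14.5% of POU5F1-only and 0.815% of POU3F1-only windows, and in 2.71% and 1.93% of the shared POU5F1 and POU3F1 windows. ATTAATTA, which holds the TAAT core that many homeodomains bind, showed the opposite order, with 5.92% of POU3F1-only and 1.80% of POU5F1-only windows and 4.10% and 4.37% of the shared ones.

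By chromosome, the shared percentage of POU5F1 peaks ranged from 37.1% on chromosome 9 to 53.6% on chromosome 3, and that of POU3F1 peaks from 52.5% on X to 58.8% on chromosome 19.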
